A study of Mus musculus with 12 samples.

Results

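Thyroid hormone acts inside a cell only after it has been taken up, activated and bound to a nuclear receptor. The 7 genes described here cover these steps, and they are the deiodinases Dio1, Dio2 and Dio3, the receptors Thra and Thrb, the transporter Slc16a10 and the corepressor Ncor1. They were chosen by symbol for these roles, 7 of the 23420 genes in the count table. Reads were counted in inguinal white adipose tissue (iWAT), the subcutaneous fat pad of mice in which beige adipocytes form, from 12 male C57BL/6 mice with 3 mice per group. Mice were 10 weeks old and had spent 1 week at 30 °C, which is thermoneutrality (TN), or 3 days at 4 to 6 °C (cold). All mice carried HIF2α loxP/loxP alleles. WT mice had no Cre, and HIF2α AKO mice had Adiponectin-Cre, which recombines them in adipocytes, so that Cre and the recombined alleles always came together.

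The thyroid secretes mainly the prohormone T4, and DIO2 removes an iodine from it to make the active hormone T3 within the cell. DIO3 inactivates both hormones, whereas DIO1 acts mostly in liver, kidney and thyroid. The receptors TRα (Thra) and TRβ (Thrb) sit on DNA together with retinoid X receptors (RXR), recruit corepressors such as NCoR1 while empty, and exchange them for coactivators once T3 is bound. In brown fat, noradrenaline raises Dio2 transcription through cAMP, and the T3 made on site is required for full heat production.

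The libraries held between 22368316 and 35204631 counts on genes. Epas1, which encodes HIF2α, lay between 278 and 430 CPM (reads scaled to library size with TMM factors) over the 6 TN libraries. In cold it lay between 562 and 742.8 CPM in WT and between 743.2 and 986 CPM in mice labelled HIF2α AKO. Epas1 was thus higher in every cold mouse labelled HIF2α AKO than in every cold WT mouse. The ratio of their means was 1.32, and at TN the genotypes overlapped. Its reads are summed over all exons, the floxed ones among them, so that genotypes are given as labelled. Summed over 6 adipocyte markers, including Adipoq, Plin1 and Lep, the level was lowest in TN WT replicate 2 (4298 CPM) and TN HIF2α AKO replicate 1 (6433 CPM), and it lay between 7932 and 11552 CPM in the other TN libraries and between 14199 and 27546 CPM in cold. The sum of 10 skeletal muscle markers was 1779 CPM in TN HIF2α AKO replicate 2 and 1558 CPM in cold HIF2α AKO replicate 1, against 14.9 to 104 CPM in the other libraries. That of 6 epithelial markers was 200 CPM in TN WT replicate 3 and at most 10.3 CPM elsewhere. Summed markers of 5 other kinds lay between 11.5 and 59.2 CPM at TN, 3065 and 4596 CPM in cold WT and 5328 and 8091 CPM in cold HIF2α AKO for beige adipocytes, between 1024 and 2272 CPM for macrophages, between 700.0 and 977 CPM for endothelium, between 1109 and 1847 CPM for adipose progenitors and between 460.1 and 1323 CPM for lymphocytes. No marker was at 0 throughout a group.

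Dio2 lies on chromosome 12 from 90724552 to 90738438 on the minus strand of GRCm38 and has 5815 bases of exon. The 250 bases before its RefSeq start are shown because this is the gene with the largest change, and because they hold the only palindromic cAMP response element, TGACGTCA, found among the members. The element is in capitals, reads the same on both strands and begins 95 bases before the RefSeq start. The gene position above comes from another annotation, whose start (90738438) lies downstream of the RefSeq start. The window is chr12:90739039-90739288 (GRCm38.p6, minus strand, written 5′ to 3′).
Dio2 upstream region: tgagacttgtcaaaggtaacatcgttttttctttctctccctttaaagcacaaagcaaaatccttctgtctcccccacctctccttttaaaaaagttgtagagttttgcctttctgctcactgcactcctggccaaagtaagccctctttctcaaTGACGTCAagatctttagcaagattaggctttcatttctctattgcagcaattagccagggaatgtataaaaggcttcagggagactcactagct
TGACGTCA stands on either strand of 1.55% of the 32851 RefSeq windows of 250 bases before a gene's start. The hypoxia response motifs ACGTG and GCGTG, found in 16.6 and 28.2% of these windows, and the receptor motif AGGTCA, found in 14.0%, had no match in the Dio2 window. Windows were given for 6 of the 7 genes. Among the others, Thrb had matches to GCGTG and AGGTCA in one of its 2 windows and to ACGTG in the other, Slc16a10 had 2 matches to GCGTG, Ncor1 had 1 match to ACGTG, and Dio1 and Dio3 had none. The shorter cAMP form TGACG, found in 17.8% of all windows, had 1 match in the former Thrb window, beginning 56 bases before the start. In the other windows of the members it was found only in Dio2, within TGACGTCA. A match is a description of these letters and not a bound site.

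Dio2 encodes the enzyme that makes T3. Among the tested genes, it went from one of the lowest to one of the more abundant in iWAT upon cold exposure. At TN its CPM was 1.10, 0.548 and 0.273 in the 3 WT mice and 0.857, 1.66 and 2.65 in the 3 HIF2α AKO mice, from counts of 8 to 75 reads. After 3 days of cold it was 209, 201 and 262.5 in WT mice and 368, 199 and 222 in HIF2α AKO mice, from counts of 4667 to 7596 reads. Every cold library was above every TN library, whereas the genotypes overlapped at each temperature. The rise in WT was 334-fold with a 95% interval of 154 to 723, or 8.38 ± 0.51 on the log2 scale (estimate and standard error), with a Benjamini-Hochberg adjusted p = 1.99e-05 by the quasi-likelihood test of edgeR. In HIF2α AKO mice it was 151-fold with a 95% interval of 73.7 to 310.0, or 7.24 ± 0.47 on the log2 scale (adjusted p = 1.84e-05, edgeR). By size of the rise, Dio2 ranked 6 among the 15306 tested genes in WT and 13 in HIF2α AKO. Per kilobase of exon, its mean level in TN WT was above that of 2.75% of the 14360 tested genes with an exon length. In cold WT it was above that of 91.2%, and for HIF2α AKO these shares were 8.45 and 92.4%. Genes under the filter on low counts are left out of these shares. The beige marker sums given above were likewise higher in every cold library than in every TN library. Within groups they did not always rank as Dio2 did. In cold WT, replicate 2 had the highest sum and the lowest Dio2 value, while in cold HIF2α AKO replicate 1 was highest in both. In bulk tissue a change in the number of such cells and a change of RNA per cell cannot be told apart.

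**Figure D1:**
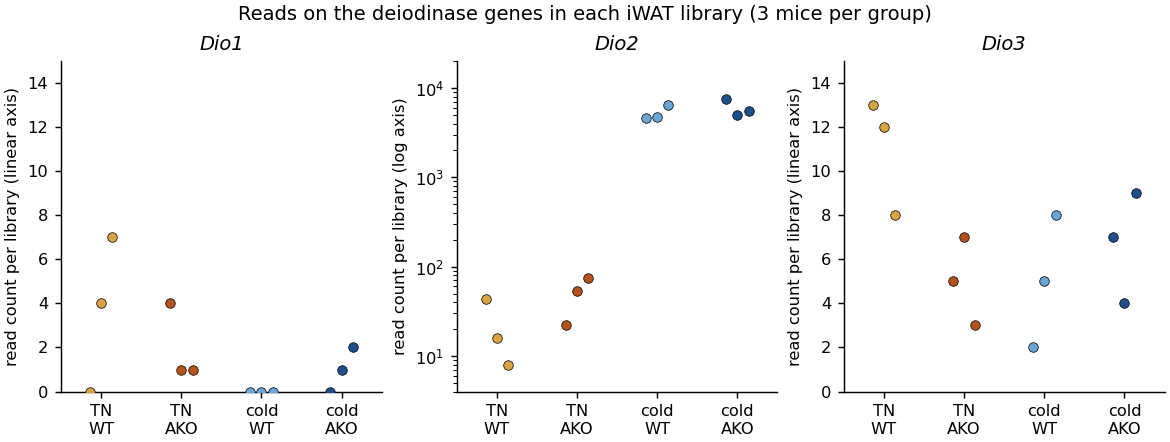
Read counts of the 3 deiodinase genes in each library, with 1 point per mouse and 3 mice per group. The Dio2 axis is logarithmic and shows 8 to 75 reads at TN and 4667 to 7596 in cold, while Dio1 stays at 7 reads or fewer and Dio3 at 13 or fewer on linear axes.

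The other deiodinases were near the detection limit in all groups. Dio1 lies on chromosome 4 from 107291465 to 107307169, and its counts were 0, 4 and 7 reads in TN WT, 4, 1 and 1 in TN HIF2α AKO, 0, 0 and 0 in cold WT, and 0, 1 and 2 in cold HIF2α AKO. Over 12 libraries this is 20 reads, with 5 libraries at 0, and 3 counts, the most that a count of 0 allows, correspond to at most 0.134 CPM in any library. The difference between 6 cold and 6 TN libraries did not pass a two-sided exact permutation test (p = 0.0952). Dio3, on chromosome 12 from 110279068 to 110281097, encodes the inactivating enzyme and is a gene of a single exon. Its counts were 13, 12 and 8 in TN WT, 5, 7 and 3 in TN HIF2α AKO, 2, 5 and 8 in cold WT, and 7, 4 and 9 in cold HIF2α AKO, 83 reads in all. In CPM, cold and TN libraries did not separate (0.248 ± 0.110 against 0.256 ± 0.107, SD, n = 6 each, two-sided exact permutation p = 0.896). At TN the 3 HIF2α AKO mice (0.173 ± 0.0598 CPM, SD) were below the 3 WT mice (0.338 ± 0.0694 CPM, SD). A two-sided exact permutation test of 3 against 3 gave p = 0.1 here, the smallest it allows. Neither gene passed edgeR's filter on low counts, so that 5 of the 7 members were tested across all genes.

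Of these 5 tested members, 2 had an adjusted p under 0.05 upon cold in WT, Dio2 and Thrb, and both were higher in cold. Of all tested genes, 21.3% passed in that comparison, 15.6% higher and 5.68% lower in cold. In HIF2α AKO the same 2 members passed, where 27% of all genes did, 15.6% higher and 11.5% lower.

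Thrb, which encodes TRβ and lies on chromosome 14 from 17660261 to 18038090, was moderately higher in cold. At TN its CPM was 16.6, 13.7 and 28.3 in WT and 18.6, 23.3 and 20.7 in HIF2α AKO. In cold it was 32.2, 26.1 and 41.4 in WT and 36.2, 35.1 and 39.9 in HIF2α AKO. The cold and TN libraries of HIF2α AKO mice did not overlap, while in WT the TN replicate 3 at 28.3 was above the cold replicate 2 at 26.1. TN WT replicate 3 was also the library with the high sum of epithelial markers, and it had the highest adipocyte marker sum of TN WT (10593 CPM). The log2 fold change upon cold was 0.77 (standard error 0.24, adjusted p = 0.0445) in WT and 0.83 (standard error 0.24, adjusted p = 0.0296) in HIF2α AKO (edgeR), or 1.70-fold and 1.77-fold. These calls lay near the limit. With 1 library left out in turn, the WT call was kept in 2 of 12 fits, without cold WT replicate 2 or without TN WT replicate 3, and its adjusted p went up to 0.176 without cold WT replicate 3. The HIF2α AKO call was lost in 5 of 12 fits, those without TN HIF2α AKO replicate 1 or 3 or any 1 of the cold HIF2α AKO replicates, with adjusted p up to 0.109. The fold change stayed positive in all of them, from 0.55 to 1.13 on the log2 scale in WT, the highest without TN WT replicate 3, and from 0.75 to 0.91 in HIF2α AKO. The adipocyte marker sums also differed between cold and TN. Thrb ranked as these sums did within TN WT, TN HIF2α AKO and cold WT, but not within cold HIF2α AKO. The part of these sums in the Thrb values was not tested. Without the 2 TN libraries lowest in these markers, the log2 fold change was 0.55 in WT (adjusted p = 0.154) and 0.75 in HIF2α AKO (adjusted p = 0.0654, edgeR).

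Thra, which encodes TRα, lies on chromosome 11 from 98740638 to 98769006 and had more reads per kilobase of exon than Thrb in every library. Its CPM was 81.8, 65.2 and 91.4 in TN WT, 65.7, 102 and 95.7 in TN HIF2α AKO, 89.8, 74.7 and 80.2 in cold WT, and 94.96, 89.2 and 91.4 in cold HIF2α AKO. The groups overlapped in every comparison, and the spread was narrowest in cold HIF2α AKO. The log2 fold change upon cold was 0.037 in WT with a 95% interval of -0.32 to 0.40, and 0.066 in HIF2α AKO with an interval of -0.29 to 0.43. The TN values moved with the adipocyte markers, in that TN WT replicate 2 and TN HIF2α AKO replicate 1 were lowest in both. Without these 2 libraries the log2 fold change was -0.10 in both genotypes, so that no direction is given for Thra. Of the exon bases of Thra, 5.70% overlap Nr1d1 on the opposite strand, a gene at 57.8 to 216 CPM, and the strand setting of the counting is not given in the sources used here.

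**Figure D2:**
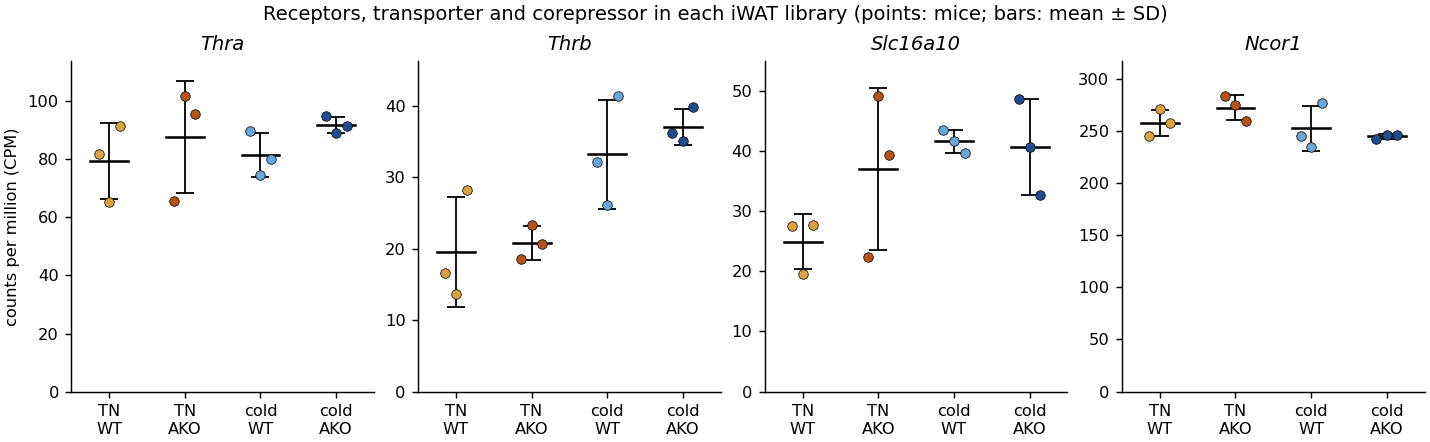
CPM of Thra, Thrb, Slc16a10 and Ncor1 in each library on linear axes from 0, with 1 point per mouse and bars for the mean ± SD of 3 mice. Thrb lies between 13.7 and 28.3 at TN and between 26.1 and 41.4 in cold, while the groups of Thra and Ncor1 lie at like heights.

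The proportion of the 2 receptor genes shifted toward Thrb upon cold. Per kilobase of exon, the ratio of Thra to Thrb was 7.92, 7.62 and 5.18 in TN WT and 5.67, 6.99 and 7.40 in TN HIF2α AKO. In cold it was 4.47, 4.59 and 3.11 in WT and 4.21, 4.07 and 3.68 in HIF2α AKO. Every cold library was below every TN library, and this ratio is taken within a library and needs no scaling between them. A ratio within a library can still differ with the mix of cells. The adipocyte marker sums lay between 4298 and 11552 CPM at TN and between 14199 and 27546 CPM in cold. In cold WT the ratio was lower where these sums were higher, while in cold HIF2α AKO it was higher. The part of these sums in the ratio was not tested. The mean log2 ratio was 2.00 ± 0.209 in cold and 2.75 ± 0.2496 at TN (SD, n = 6 each), which differ by -0.75 (two-sided exact permutation p = 0.002165, the lowest possible with 6 libraries a side). Within each genotype the difference was -0.76 in WT and -0.74 in HIF2α AKO, each with p = 0.1 by an exact permutation test of 3 against 3, the smallest it allows. The genotypes overlapped at each temperature and differed by -0.030 at TN and -0.0060 in cold on this log2 scale. With each library left out in turn the difference between cold and TN lay between -0.83 and -0.68.

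**Figure D3:**
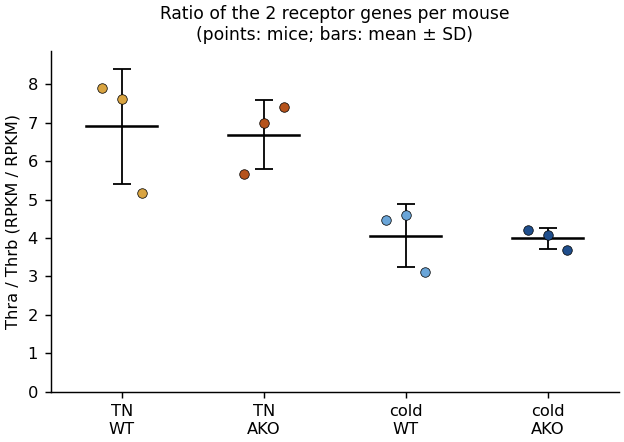
Ratio of Thra to Thrb, each as counts per kilobase of exon, in each library, with 1 point per mouse and bars for the mean ± SD of 3 mice per group on an axis from 0. The 6 TN libraries lie between 5.18 and 7.92 and the 6 cold libraries between 3.11 and 4.59.

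Slc16a10 encodes the transporter TAT1 (MCT10), which carries aromatic amino acids and thyroid hormone, and lies on chromosome 10 from 40033532 to 40142258. At TN its CPM was 27.5, 19.6 and 27.7 in WT and 22.4, 49.0 and 39.4 in HIF2α AKO. In cold it was 43.5, 41.7 and 39.7 in WT and 48.6, 40.7 and 32.7 in HIF2α AKO. The 3 cold WT mice were above the 3 TN WT mice without overlap, whereas in HIF2α AKO the cold range lay inside the TN range. The log2 fold change upon cold was 0.74 in WT (standard error 0.25, 95% interval 0.19 to 1.29, adjusted p = 0.0558), which did not pass, and 0.14 in HIF2α AKO (standard error 0.25, 95% interval -0.41 to 0.68, adjusted p = 0.695, edgeR). The difference between these responses was -0.60 with an unadjusted p of 0.114 for the interaction term of the edgeR model, and its adjusted p was 1. Neither response nor the difference between them passed, and single libraries moved each of them. The WT value passed when either TN HIF2α AKO replicate 1 (adjusted p = 0.0141, edgeR) or replicate 2 (adjusted p = 0.0393, edgeR) was dropped, with the estimate at 0.74 in each. It also passed with DESeq2 (adjusted p = 0.0250), with limma voom (adjusted p = 0.0197) and with only the WT libraries in the edgeR fit (adjusted p = 0.0279). The HIF2α AKO value was 0.39 without TN HIF2α AKO replicate 2, -0.011 without cold HIF2α AKO replicate 1 and -0.12 when TN HIF2α AKO replicate 1 was dropped. The highest value of each HIF2α AKO group was in the library high in skeletal muscle markers, TN replicate 2 and cold replicate 1. Without both libraries the change was 0.25 in HIF2α AKO, the WT value passed (adjusted p = 0.0390, edgeR), and the genotype difference at TN went from 0.57 to 0.31 on the log2 scale. The lowest TN values, 19.6 and 22.4 CPM, were in the 2 libraries lowest in adipocyte markers, and without these the change was 0.58 in WT (adjusted p = 0.0534) and -0.12 in HIF2α AKO (edgeR).

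Ncor1, the corepressor that receptors without hormone recruit, lies on chromosome 11 from 62316426 to 62458541 and lay within a narrow range. Its CPM was 246, 271 and 258 in TN WT, 283, 275 and 259 in TN HIF2α AKO, 245, 235 and 277 in cold WT, and 242, 247 and 246 in cold HIF2α AKO. All cold HIF2α AKO mice were below all TN HIF2α AKO mice, and in WT the temperatures overlapped. The log2 fold change was -0.15 in HIF2α AKO with a 95% interval of -0.36 to 0.048 and -0.031 in WT with an interval of -0.23 to 0.17, and neither passed the test. Its exons share 82 bases (0.640%) with Pigl and 1 base with Ttc19 on the opposite strand.

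Compared per kilobase of exon (RPKM), the order of the 7 genes differed between temperatures mainly through Dio2. In TN WT, Ncor1 (20.1 ± 0.983, SD, n = 3) and Thra (17.2 ± 2.86) stood first and overlapped each other. They were followed by Slc16a10 (3.39 ± 0.626) and Thrb (2.64 ± 1.04), which also overlapped, and by Dio3 (0.167), Dio2 (0.110) and Dio1 (0.0636), of which neighbours overlapped. In cold WT, Dio2 stood first at 38.5 ± 5.75 RPKM, above every library of Ncor1 (19.7 ± 1.71) and Thra (17.7 ± 1.65), and Slc16a10 (5.66 ± 0.255) and Thrb (4.49 ± 1.04) overlapped below them. The order in cold HIF2α AKO was led by Dio2 at 45.2 ± 15.7 RPKM, and there Thra (19.9 ± 0.627) was just above Ncor1 (19.1 ± 0.191) in all libraries.

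Between genotypes, 0 of the 5 tested members had an adjusted p under 0.05 at either temperature by edgeR, where 1 gene in 15306 passed at TN (0.00653%) and 1 in cold (0.00653%). Unadjusted p under 0.05 was reached by 2 members at TN and 0 in cold, against 2.91% of all tested genes at TN and 2.95% in cold. These 2 were Dio2, with a log2 fold change of HIF2α AKO against WT of 1.37 (standard error 0.50, 95% interval 0.28 to 2.47, adjusted p = 0.999, edgeR), and Slc16a10 at 0.57 (standard error 0.25, adjusted p = 0.999, edgeR). The Dio2 values at TN rest on 8 to 75 reads per library, 2 of 3 HIF2α AKO mice were above all WT mice, and leaving out 1 library moved the value between 0.94 (TN HIF2α AKO replicate 3) and 2.07 (TN WT replicate 1). In cold, the Dio2 difference was 0.23 with a 95% interval of -0.53 to 0.99, that is, from 0.693-fold to 1.99-fold. It was -0.090 without cold HIF2α AKO replicate 1, the mouse with the highest Dio2 value and the high muscle marker sum. The beige marker sums of the cold genotypes did not overlap and were higher in HIF2α AKO, and their part in the Dio2 values was not tested. The cold differences of the other members were 0.17 for Thra, 0.16 for Thrb, -0.034 for Slc16a10 and -0.044 for Ncor1, each with an interval that includes 0.

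The interaction of genotype and temperature, which asks whether the cold response differed between HIF2α AKO and WT, passed for 0% of all tested genes by edgeR, and for 0 by DESeq2 and by limma voom. At an unadjusted p under 0.05, 327 genes and 0 of the members passed. For Dio2 the term was -1.14 on the log2 scale (standard error 0.61, 95% interval -2.48 to 0.19, unadjusted p = 0.0863, adjusted p = 1 from edgeR's model). The comparisons within and between genotypes share libraries, so their values for one gene are not independent of each other. For Thra, Thrb and Ncor1 the interaction was 0.029, 0.059 and -0.12.

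**Figure D4:**
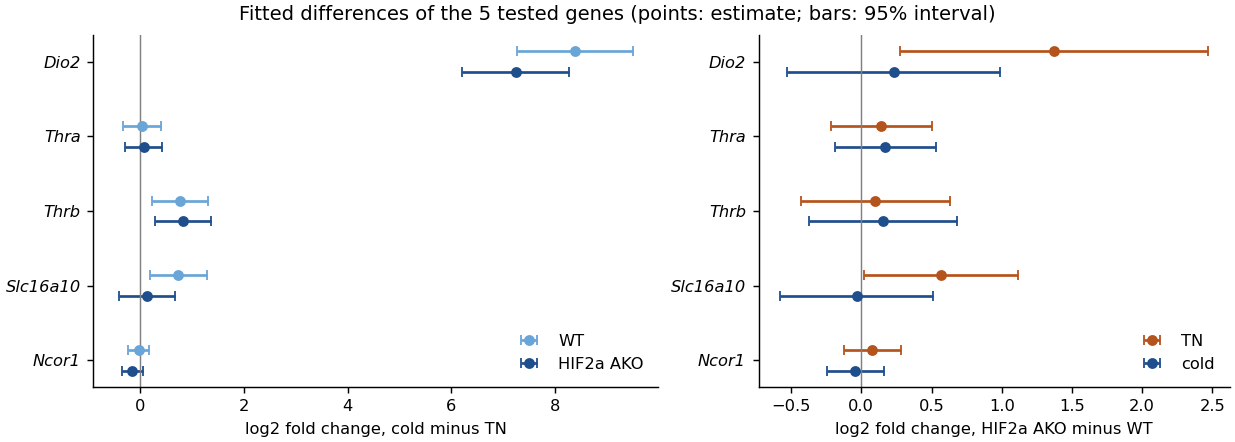
Fitted log2 fold changes of the 5 tested members with 95% intervals, for cold minus TN in each genotype on the left and HIF2α AKO minus WT at each temperature on the right, from 3 mice per group. Dio2 stands at 8.38 and 7.24 on the left, and on the right the intervals that exclude 0 are those of Dio2 and Slc16a10 at TN, which did not pass after adjustment.

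The wider pathway was followed in 9 lists that hold 53 other genes of the table, of which 50 were tested. In WT, 15 of the 50 were higher and 1 was lower in cold, and in HIF2α AKO 14 were higher and 6 lower. Beside them, 15.6% of all tested genes were higher in each genotype and 5.68% lower in WT and 11.5% lower in HIF2α AKO, so that the share of pathway genes lower in HIF2α AKO was near that of all genes. The medians of the pathway genes were 0.27 and 0.14 on the log2 scale against -0.034 and -0.051 for all genes. None passed between genotypes at either temperature. The count of 16 in WT was 10 without TN WT replicate 2. The count of 20 in HIF2α AKO was 7 without TN HIF2α AKO replicate 1 or cold HIF2α AKO replicate 1, 11 without TN HIF2α AKO replicate 3 or cold HIF2α AKO replicate 2, and 13 without TN WT replicate 1.

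Some genes that act on the DIO2 protein and on selenoproteins passed upon cold. Over all tested genes, 15.6% were higher in each genotype, 5.68% lower in WT and 11.5% lower in HIF2α AKO. The lists are short, and their counts were not tested against these shares. DIO2 is a selenoprotein that is marked by ubiquitin once it has met its substrate. Of 5 genes of its turnover, 2 were higher and 1 lower in WT, and 1 was higher and 1 lower in HIF2α AKO. Wsb1, a subunit of the ligase that ubiquitinates DIO2, was at 62.2 to 71.7 CPM in TN WT and 36.1 to 49.0 CPM in cold WT. It fell by 0.63 in WT and by 0.48 in HIF2α AKO on the log2 scale (adjusted p = 0.00778 and 0.0205, edgeR). Usp33, which removes ubiquitin from DIO2, rose by 0.80 and 0.75, and Ube2g2, a ubiquitin-conjugating enzyme, rose by 0.35 in WT and had 0.20 in HIF2α AKO, which did not pass. Of 6 genes of selenoprotein synthesis, 2 rose in WT and 3 in HIF2α AKO. Sephs2, which makes the selenium donor, went from 36.7 to 52.8 CPM in TN WT to 135 to 197 CPM in cold, and its log2 rise was 1.80 in WT (adjusted p = 0.000448, edgeR) against 1.56 in HIF2α AKO (adjusted p = 0.000369, edgeR). Sepsecs, the selenocysteine synthase, rose by 0.65 and 0.58, and Pstk, the kinase before it, rose by 0.63 in HIF2α AKO and had 0.24 in WT, which did not pass.

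Transporters, receptor partners and corepressors are given next, beside 15.6% of all tested genes that were higher in each genotype. Of 5 other transporter genes tested, 2 were higher in each genotype. Slc3a2, the heavy chain shared by several amino acid transporters, rose by 0.64 in WT and 0.32 in HIF2α AKO. Slc7a8, a light chain that pairs with it, rose by 0.53 in WT and had -0.099 in HIF2α AKO, which did not pass. Of the 3 RXR genes, Rxrg rose in both genotypes, by 1.16 and 1.08, and Rxra rose by 0.49 in WT and had 0.081 in HIF2α AKO. Of 5 other corepressor genes, 0 passed in WT and 1 in HIF2α AKO, the deacetylase Hdac3, at 0.26.

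Of 10 coactivators, 1 was higher in each genotype and 4 were lower in HIF2α AKO, where 11.5% of all tested genes were lower. The one that rose was Ppargc1a, which drives mitochondrial biogenesis. Its CPM was 6.88, 5.48 and 7.64 in TN WT and 52.7, 37.5 and 28.2 in cold WT, and 5.26, 10.1 and 8.27 against 85.5, 59.8 and 38.6 in HIF2α AKO. Its log2 fold change was 2.56 in WT and 2.95 in HIF2α AKO (adjusted p = 0.000991 and 0.000328, edgeR), with no overlap between temperatures. Ncoa3 and the acetyltransferase Ep300 fell by 0.52 and by 0.46 in HIF2α AKO, where their adjusted p was 0.0413 and 0.0247 (edgeR), and had -0.41 and -0.14 in WT.

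Of 10 genes that T3 is known to raise, 5 were higher in WT and 4 in HIF2α AKO, beside 15.6% of all tested genes in each. Their medians were 1.27 in WT and 0.90 in HIF2α AKO on the log2 scale. Those of all tested genes were -0.034 and -0.051, and those of the adipocyte markers were 0.94 and 0.67. Ucp1, the uncoupling protein of heat production, was at 0.204 to 3.85 CPM at TN and 2171 to 5897 CPM in cold, with log2 fold changes of 12.6 and 11.4, and it also stands in the beige marker list. Gpd2, the mitochondrial glycerol phosphate dehydrogenase, rose by 1.95 and 2.40. Thrsp, which promotes lipid synthesis, lay between 251 and 1193 CPM in TN WT and between 2114 and 4926 CPM upon cold. On the log2 scale the difference was 2.11 in WT (standard error 0.65, adjusted p = 0.0422, edgeR) and 1.65 in HIF2α AKO (standard error 0.64, adjusted p = 0.0764, edgeR), which did not pass. The low TN values of Thrsp, 251 and 270 CPM, were in TN WT replicate 2 and TN HIF2α AKO replicate 1, the libraries lowest in adipocyte markers. Several of these genes also respond to other signals, and none was measured against hormone levels here. Of the 4 tested receptors that act upstream of Dio2, 1 was higher in each genotype and 1 was lower in HIF2α AKO. Beside them, 11.5% of all tested genes were lower in HIF2α AKO. The higher one was Adrb1, a receptor for noradrenaline, which rose by 1.21 and 1.98. The median of the 4 was -0.34 in WT and -0.37 in HIF2α AKO on the log2 scale. Of the 2 tested genes of hormone binding and conjugation, 0 passed in either genotype.

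**Figure D5:**
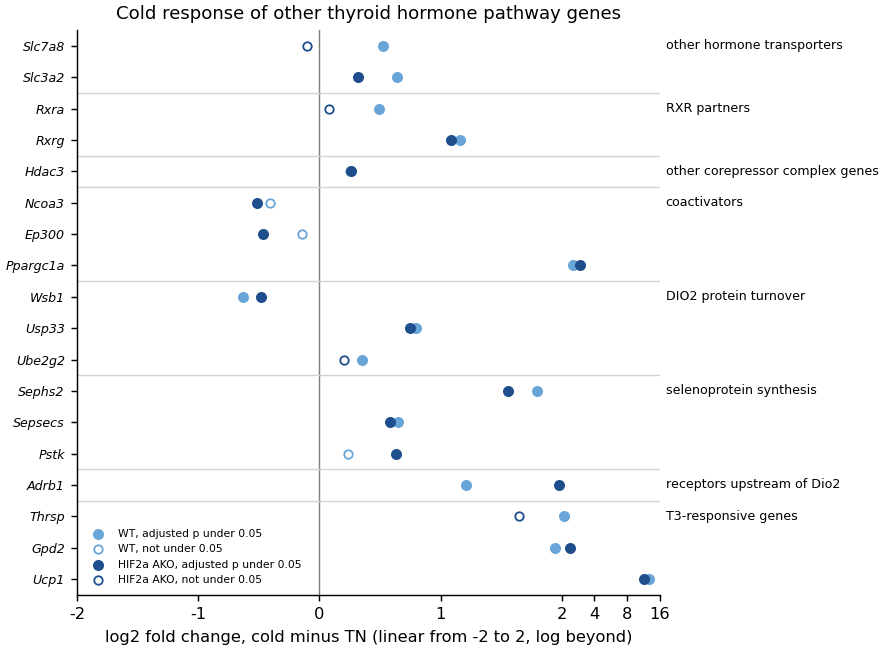
Log2 fold changes of cold minus TN for the 18 other pathway genes described in the text, grouped by list, in WT (light) and HIF2α AKO (dark), with filled points for an adjusted p under 0.05. The axis is linear from -2 to 2 and logarithmic beyond, and Ucp1 and Ppargc1a stand farthest to the right, while the open WT point of Hdac3 lies behind the dark one.

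Across the 12 libraries, the genes most like Dio2 among 13144 with a mean count of at least 50 were Fabp3 (Pearson r of log2 CPM 0.993), Tmem37 (0.989) and Ucp1 (0.987). Fabp3 encodes a fatty acid binding protein of oxidative tissues. The libraries fall into 6 TN and 6 cold ones, and r is given as a description with no test. Thrb was most like March3 (0.984), Tmem177 (0.980) and Psmd13 (0.976), and Thra most like Pth1r (0.976), Prune2 (0.925) and Hspa12a (0.911). For Slc16a10 these were Fsd2 (0.933), Hipk2 (0.931) and Ppp1r3e (0.929), and for Ncor1 they were Sec16a (0.970), Sugp2 (0.874) and Nsd1 (0.871). Among the members, r was highest between Dio2 and Thrb (0.809) and between Thra and Slc16a10 (0.736), and Ncor1 was negative with all other tested members, from -0.53 to -0.31.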

How the data were processed

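Counts per gene, as deposited, are whole read counts without normalization. The authors trimmed reads with Trim Galore 0.4.4, aligned them with STAR 2.6.1d to GRCm38/mm10 and counted them with HTSeq 0.13.5. The gene annotation and strand setting are not given in the sources used here. All 12 sample files equalled the series table. The 5 HTSeq tallies outside genes, 21.9 to 27.0% of listed reads, were left out. Genes with low counts were removed by filterByExpr (minimum count 10, minimum total 15), which left 15306. One edgeR 4.0.16 quasi-likelihood model (R 4.3.3) of 4 groups was fitted after TMM scaling, with Benjamini-Hochberg adjustment over all tested genes and a limit of 0.05. Alternatives used DESeq2 1.42.0 and limma 3.58.1, other scalings, filters, thresholds and samples. Log2 CPM used a prior count of 2. Dio1, Dio3 and the Thra to Thrb ratio were tested by two-sided exact permutation. Positions and exon lengths came from GENCODE M21 on GRCm38, with lengths for 92.8% of genes by symbol, and promoter windows from RefSeq on GRCm38.p6. Nothing in the labels pairs mice across groups, and same-numbered libraries deviated together (r above 0.1) in 5 of 18 pairs, from -0.426 to 0.392. The p-values of the main edgeR fit rest on a spread between mice that is estimated over all 12 libraries, with 3 mice per group. At 22368316 to 35204631 counts per library, counting error is small for all members but Dio1, Dio3 and Dio2 at TN. The model was tested on simulated counts.

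The members and all lists were chosen with earlier results of these data known. Named are the 7 members, up to 3 genes per pathway list with the largest change among those passing the test in cold against TN in either genotype, Rxra, Ppargc1a, Ucp1 and Thrsp whatever their values, the 3 genes most correlated with each tested member, and genes whose exons overlap a member. Some genes that met this rule are not reported here. The 8 marker lists covered adipocytes, beige adipocytes, skeletal muscle, macrophages, endothelium, adipose progenitors, lymphocytes and epithelium.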

Additional observations from a re-analysis of the deposited data

How the results depend on the processing

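Dio2 kept its call upon cold in both genotypes under all alternatives, with log2 fold changes of 7.82 to 9.08 in WT and 6.83 to 7.68 in HIF2α AKO. The count of members that passed upon cold in WT, 2 in the report, was 1 with upper quartile scaling, 1 without a filter on low counts and 1 without both libraries low in adipocyte markers, and 1 to 2 with 1 library left out in turn. Thrb lost its call in WT in 15 of 23 alternatives, also with only the WT libraries (adjusted p = 0.122, edgeR) and without both libraries high in skeletal muscle markers (adjusted p = 0.0653, edgeR), where Slc16a10 passed in its place. Slc16a10 gained a call in 8 of 23, of which 2 leave out 1 library and 2 use a wider limit on p. In HIF2α AKO, also 2, it was 1 without both libraries high in skeletal muscle markers, 1 without both low in adipocyte markers, and 1 to 2 with 1 library left out. These 2 exclusions were chosen after seeing the data. Between the TN genotypes the count of 0 was 2 at an unadjusted p under 0.05 and 2 at an unadjusted p under 0.15 with an absolute log2 fold change above 0.2. For the interaction the latter gave 2. At the unadjusted limit of 0.05, 446 of 15306 genes (2.91%) passed between the TN genotypes. Over the alternatives, up to 1321 genes passed between the TN genotypes and up to 1349 for the interaction. With the replicate block, which the numbers do not justify as a pairing, Thrb upon cold was 0.79 in WT and 0.81 in HIF2α AKO on the log2 scale, and the block changed no call of a member. Genes called upon cold in WT, 3259 in the report, numbered 1752 with only the libraries compared and 1381 without TN WT replicate 2, and in HIF2α AKO, 4138 in the report, they numbered 1514 without both libraries high in skeletal muscle markers and 1613 without cold HIF2α AKO replicate 1. Counts were highest, 8029 and 8352, at an unadjusted p under 0.15 with an absolute log2 fold change above 0.2. The study gave these wider limits for cold HIF2α AKO against cold WT, with DESeq2. Small values that did not pass changed sign. For Thra upon cold in WT, the value was -0.095 with upper quartile scaling, -0.10 without both libraries low in adipocyte markers, and -0.10 to 0.15 with 1 library left out. In HIF2α AKO, Thra was -0.021 with upper quartile scaling, -0.0054 with voom, -0.10 without the same 2 libraries, and -0.10 to 0.19 with 1 library left out. Slc16a10 upon cold in HIF2α AKO was -0.12 without those 2 libraries and -0.12 to 0.39 with 1 library left out. Between TN genotypes, Thrb was -0.024 without them and -0.098 to 0.46 with 1 library left out. Between cold genotypes, Dio2 was -0.090 without both libraries high in muscle markers and -0.090 to 0.40 with 1 library left out, Slc16a10 was 0.0037 without a filter and -0.18 to 0.10 with 1 left out, and Ncor1 was 0.0070 with voom and -0.064 to 0.028 with 1 left out. The interaction of Thra was -0.034 with voom and -0.14 to 0.17 with 1 library left out, and that of Thrb -0.032 and -0.30 to 0.27. Upper quartile scaling shifted the median of all genes upon cold to -0.17 in WT and -0.14 in HIF2α AKO. The cause was not tested. Depth limits Dio1 and Dio3 in all groups and Dio2 at TN.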
